A study of Mus musculus with 17 samples.

Results

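The genes described here are 40 genes of mitosis and chromosome segregation, measured on Affymetrix mouse arrays in 17 samples. A gene was included when a probe set (the group of oligonucleotides that reads 1 transcript) was annotated with its symbol and no other, and where several were, the one with the highest mean in the 17 arrays stood for the gene. Of the 40 genes, 38 had such a probe set, out of 17097 genes on the array, and Ccnb1 and Nuf2 were not analysed here. All 38 passed the filter on low values, which 11625 genes passed. The genes were not chosen on a comparison between groups, but they were listed with earlier results of these data known.

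The study asked how the cell of origin shapes leukemias made with 1 pair of oncogenes, Myc and Bcl2. Wildtype C57/Bl6 CD45.2 donor cells were transformed with both and injected into irradiated recipients (4.5 to 6 Gy, 4 to 8 weeks old), and spleen cells of the diseased recipients were sorted as CD11b+Gr1+ and CD3-CD4-CD8-, a myeloid phenotype. The transformed cells were LSK cells of the marrow, a population enriched for stem cells (3 arrays), DN2 cells, an early stage of T-cell development in the thymus (5 arrays), or the granulocyte-macrophage progenitors called GMP (5 arrays). The controls were untransformed DN2 cells (2 arrays) and GMP (2 arrays) of healthy wildtype C57/Bl6 mice, which carried neither oncogene. Each array was made from 300 ng of total RNA. Neither the promoter that drove the oncogenes nor whether the replicates of a group were separate mice is stated, so the p-values measure only the spread between these samples, which may be technical.

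A cell entering mitosis activates cyclin-dependent kinase 1 with its cyclins and with the Aurora and Polo kinases, builds a spindle, and attaches each chromosome to it through the kinetochore, a protein complex on the centromere. The spindle checkpoint holds anaphase back until all chromosomes are attached. The anaphase-promoting complex with its activator Cdc20 then marks securin and the cyclins for destruction, separase cuts the cohesin that joins sister chromatids, and the cell divides. Most transcripts of this programme accumulate late in the cell cycle and are low in resting cells, so in blood cells they are widely read as a proliferation signature.

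Many of these genes are known to be controlled through 2 short promoter elements, CCAAT, the box bound by the factor NF-Y, and the cell cycle genes homology region, whose common core is TTTGAA. Promoter windows of 300 bases (250 before and 50 after the transcription start, from RefSeq on GRCm38.p6) were held for 31 of the 38 genes, and both motifs were searched on both strands. TTTGAA occurred in 24 of the 31 windows (77.4%), against 20.2% of the windows of 27025 genes. CCAAT occurred in 24 of the 31 (77.4%), against 41.1%. Both occurred in 21 (67.7%), against 8.97%. The Pttg1, Mad2l1, Birc5 and Nusap1 windows held neither. A match describes the letters in the window and is not evidence of a bound site.

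The 250 bases before the start are printed for 6 genes that the expression results turn on, 5' to 3' on the gene's own strand, with both motifs in capitals (ATTGG and TTCAAA are CCAAT and TTTGAA on the other strand). Ccnb2 (chr9:70421555-70421804, minus strand), Cdc20 (chr4:118437344-118437593, minus strand), Ube2c (chr2:164769679-164769928, plus strand) and Hmmr (chr11:40733438-40733687, minus strand) stand for the genes that moved together. Cenpa (chr5:30666636-30666885, plus strand) and Pttg1 (chr11:43425982-43426231, minus strand) are the members whose expression departed from the rest.
Ccnb2: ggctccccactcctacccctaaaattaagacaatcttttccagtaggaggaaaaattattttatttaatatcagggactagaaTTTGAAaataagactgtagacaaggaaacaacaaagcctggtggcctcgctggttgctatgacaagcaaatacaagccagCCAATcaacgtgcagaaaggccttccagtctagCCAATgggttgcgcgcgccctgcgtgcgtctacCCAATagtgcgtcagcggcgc
Cdc20: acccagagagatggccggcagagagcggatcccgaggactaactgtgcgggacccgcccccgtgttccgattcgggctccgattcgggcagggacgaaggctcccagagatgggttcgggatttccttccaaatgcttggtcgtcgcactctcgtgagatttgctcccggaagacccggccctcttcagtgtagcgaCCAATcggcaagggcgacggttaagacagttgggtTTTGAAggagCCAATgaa
Ube2c: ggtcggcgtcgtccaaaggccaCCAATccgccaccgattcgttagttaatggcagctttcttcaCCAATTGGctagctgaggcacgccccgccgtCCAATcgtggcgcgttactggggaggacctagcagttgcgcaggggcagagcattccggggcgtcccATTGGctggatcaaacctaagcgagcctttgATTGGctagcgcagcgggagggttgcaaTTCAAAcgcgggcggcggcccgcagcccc
Hmmr: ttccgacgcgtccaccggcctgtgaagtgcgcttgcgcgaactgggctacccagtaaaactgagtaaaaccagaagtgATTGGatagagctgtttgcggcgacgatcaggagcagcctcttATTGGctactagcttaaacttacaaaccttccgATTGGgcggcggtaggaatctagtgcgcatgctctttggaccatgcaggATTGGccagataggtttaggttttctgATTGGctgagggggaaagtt
Cenpa: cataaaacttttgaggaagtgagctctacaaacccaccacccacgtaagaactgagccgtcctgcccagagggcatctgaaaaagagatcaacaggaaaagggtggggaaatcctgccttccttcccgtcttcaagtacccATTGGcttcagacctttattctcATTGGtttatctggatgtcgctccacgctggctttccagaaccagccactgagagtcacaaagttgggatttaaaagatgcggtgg
Pttg1: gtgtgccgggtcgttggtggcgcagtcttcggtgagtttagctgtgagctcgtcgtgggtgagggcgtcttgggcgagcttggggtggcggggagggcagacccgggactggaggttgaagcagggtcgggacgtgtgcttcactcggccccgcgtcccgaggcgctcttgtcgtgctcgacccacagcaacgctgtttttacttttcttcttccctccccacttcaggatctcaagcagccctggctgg
The Ccnb2 stretch holds 3 CCAAT boxes in 1 orientation and the Hmmr stretch 5 in the other. In Ube2c 2 boxes of opposite orientation overlap. The TTTGAA of Hmmr and of Cenpa lies just after the start, 8 and 16 bases into the transcript, and is therefore outside the printed stretch. The Cenpa window thus holds both motifs, as those of Cdc20 and Ube2c do, and the Pttg1 stretch has no capital at all. Birc5, Nusap1 and Mad2l1, whose windows also held neither motif, did not share the direction of Pttg1. Their means were 7.91, 7.11 and 8.91 in the DN2-labelled leukemia, against 10.30, 10.03 and 10.54 in healthy DN2. The part of the motifs in the expression was not tested.

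Several leukemia arrays go against their labels. Myc, the oncogene named in the labels, was 5.48 to 6.49 in the 13 leukemia arrays and 10.10 to 10.65 in the 4 healthy arrays, on the log2 scale used for every level here, so that every leukemia array was below every healthy one. Whether the probe set reads the introduced oncogene is not stated. Bcl2, the other oncogene, was 9.25 to 9.94 in the DN2-labelled and 10.08 to 11.53 in the GMP-labelled arrays, against 5.89 to 6.99 in healthy cells, but LSK-labelled arrays 2 and 3 had only 6.75 and 5.27 where array 1 had 11.30. Mycn, a relative of Myc, was 11.58 to 12.10 in the 5 DN2-labelled arrays and 12.06 to 13.15 in the 5 GMP-labelled arrays, but only 4.91 and 4.22 in LSK-labelled arrays 2 and 3, near the 3.96 to 4.58 of healthy cells. Itgam, which encodes the sorted antigen CD11b, was 7.17 and 7.38 in DN2-labelled arrays 1 and 3 but 3.24 to 3.47 in arrays 2, 4 and 5. Cd3e, a component of the antigen CD3 that the sort was to remove, was 7.79 to 9.06 in all 5 DN2-labelled arrays and at most 5.34 in the other leukemias. Counts are also given without LSK-labelled arrays 2 and 3 and without DN2-labelled arrays 2, 4 and 5. Since Cd3e was high in all 5 DN2-labelled arrays, nothing can be given without those, and every direction below is for arrays with that label. In bulk samples, fewer dividing cells and less of a transcript per cell cannot be told apart.

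Averaged over the 38 genes, the mitotic transcripts were highest in the healthy progenitors and lowest and most scattered in the DN2-labelled leukemias. The mean over the genes was 9.31 and 9.33 in the healthy GMP arrays and 9.07 and 9.03 in healthy DN2. It was 8.36, 8.08 and 8.80 in LSK-labelled arrays 1 to 3, and 7.98, 7.95, 8.73, 8.79 and 8.35 in GMP-labelled arrays 1 to 5. In DN2-labelled arrays 1 to 5 it was 7.01, 5.87, 8.49, 6.99 and 5.55. Array 3 of that group thus lay among the GMP-labelled arrays, and its other 4 arrays lay below every other array of the study. The group means were 6.78 ± 1.16 for DN2-labelled (SD, n = 5), 8.36 ± 0.40 for GMP-labelled (SD, n = 5) and 8.41 ± 0.36 for LSK-labelled leukemia (SD, n = 3). The median SD of a member between arrays was 1.34 in the DN2-labelled group, where that of all genes tested was 0.27. In the GMP-labelled group the same quantities were 0.50 and 0.32, and in healthy DN2 they were 0.05 and 0.07.

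**Figure D1:**
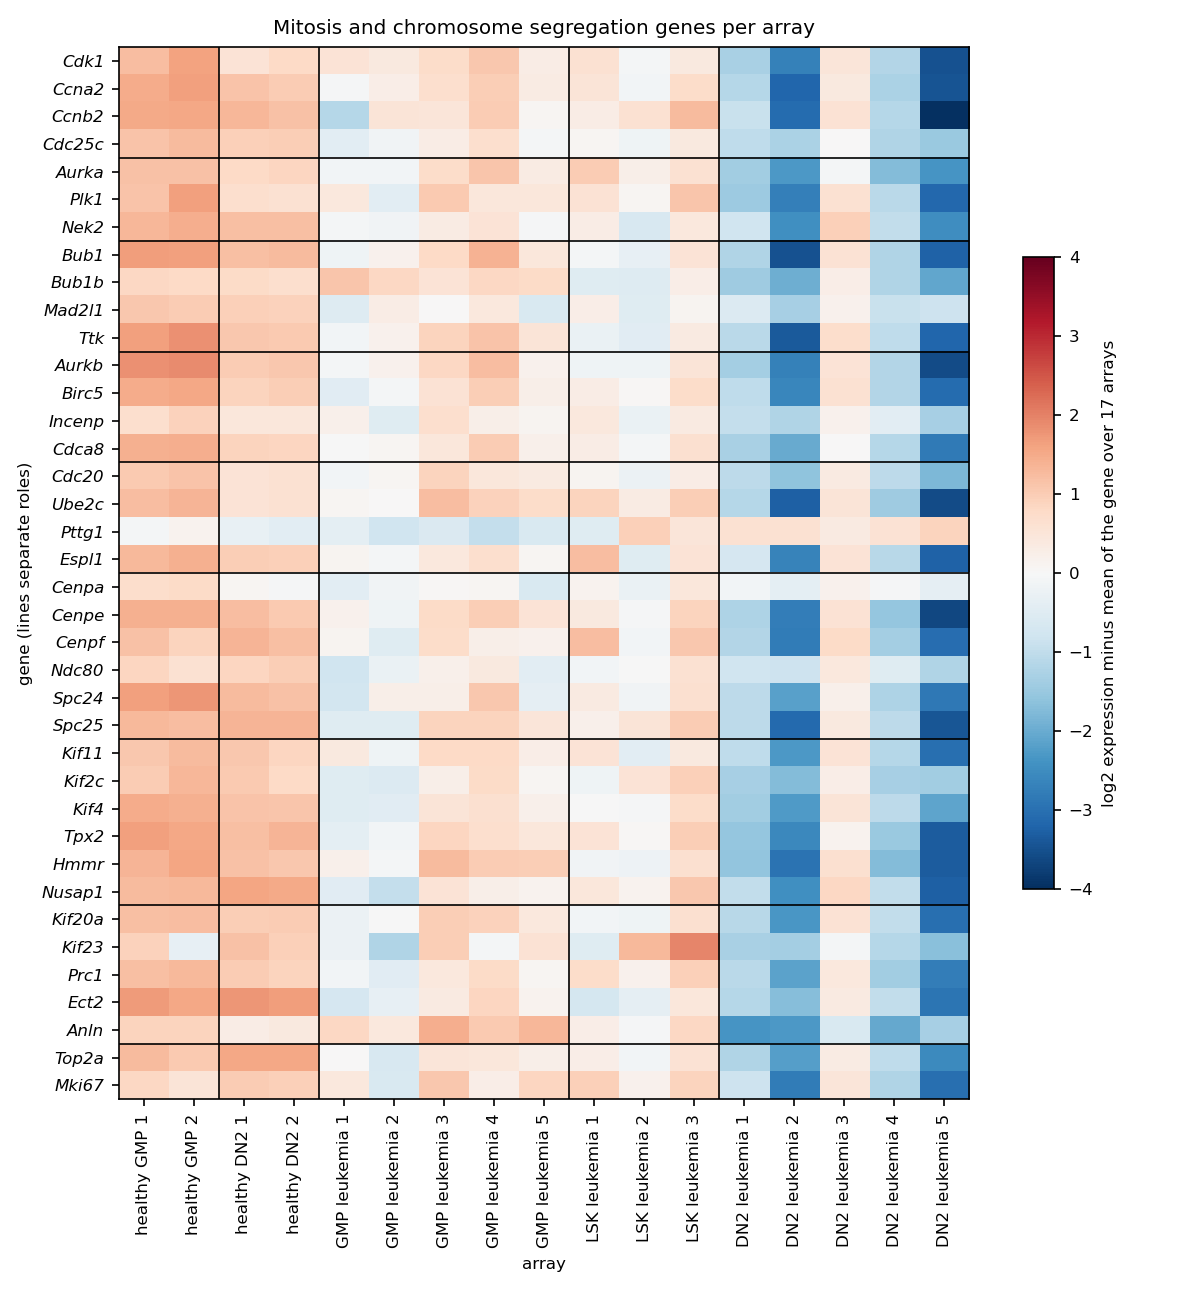
Heat map of the 38 genes (vertical, lines separate roles) in the 17 arrays (horizontal, lines separate groups), with colour giving log2 expression minus the mean of the gene over all arrays. The healthy arrays are red in nearly all genes, DN2-labelled arrays 1, 2, 4 and 5 are blue, DN2-labelled array 3 resembles the GMP-labelled arrays, and Pttg1 shows the opposite colours to the other genes in the DN2-labelled arrays.

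Set against the GMP-labelled leukemia, the DN2-labelled leukemia had lower mitotic transcripts. Of the 38 genes, 31 were lower and 1 was higher (limma, adjusted p under 0.05), where 18.8% of all genes tested were called lower and 21.0% higher. The median difference of the members was -1.75 on the log2 scale, beside 0.03 for all genes. The lower genes spanned every role, from Cdk1 (-2.25 ± 0.53, SE, a 4.75-fold difference) to the cytokinesis protein Anln (-2.74 ± 0.31, a 6.70-fold difference). The only higher gene was Pttg1, which encodes securin. Despite the size of the differences, the arrays were fully separated in only 2 lower genes, Bub1b and Anln, and in Pttg1, against 13.6% of all genes lower and 14.6% higher without overlap. In 31 genes the DN2-labelled arrays other than array 3 all lay below every GMP-labelled array. The share of all genes for this count was not taken, and array 3 was set aside because it was known to stand apart.

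Against the LSK-labelled leukemias, 30 of the 38 genes had lower values in the DN2-labelled arrays and none was higher (limma, with 32 at an unadjusted p under 0.05), where 19.1% of all genes were lower and 28.4% higher. The median member difference was -1.75, beside 0.11 for all genes. Without LSK-labelled arrays 2 and 3, only array 1 remains in that group and its spread is taken from the other groups. The count was then 2 lower, Aurka (-2.59, adjusted p = 0.0131) and Anln (-2.00, adjusted p = 0.0163), and 1 higher, Pttg1. The other 28 genes lost their call in that setting, among them Ccnb2 (-2.01, adjusted p = 0.267), Birc5 (-1.77, adjusted p = 0.205), Ube2c (-2.67, adjusted p = 0.0906), Cenpf (-2.76, adjusted p = 0.0569), Tpx2 (-2.29, adjusted p = 0.0739) and Mki67 (-2.42, adjusted p = 0.0916). Leaving out LSK-labelled array 3 alone gave 10 lower genes, and leaving out DN2-labelled array 2 gave 19. Between LSK-labelled and GMP-labelled leukemia limma called Pttg1 higher and 0 genes lower (2 of the 38 had an unadjusted p under 0.05), where 10.3% of all genes were higher and 16.5% lower, with a median member difference of 0.12. Arrays were fully separated between DN2-labelled and LSK-labelled leukemia in 2 lower genes, Aurka and Anln, and in 0 higher genes (16% and 26% of all genes), and between LSK-labelled and GMP-labelled leukemia in 1 lower gene, Bub1b, and in 0 higher genes (14.4% and 9.53%).

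Compared with the healthy cells of the same origin, both leukemias had lower values for most of the genes. In the DN2-labelled leukemia 36 genes were lower than in healthy DN2 and 1, Pttg1, was higher (13.7% and 9.49% of all genes), with a median of -2.38. The arrays did not overlap in 35 of the lower genes, as in 26.5% of all genes, and in Pttg1, as in 23.4%. The count of 36 rests on both control arrays, since it fell without either of them, which leaves 1 control array. The median was -2.87 to -2.03 with any 1 of the 7 arrays left out. In the GMP-labelled leukemia 3 genes, Cdc25c, Mad2l1 and Cenpa, were lower than in healthy GMP and 0 higher by limma (9 at an unadjusted p under 0.05, with 13.1% and 8.09% of all genes called). Yet all 5 leukemia arrays lay below both healthy arrays in 33 of the 38 genes, which held for 27.5% of all genes, and the median difference was -1.03 beside -0.12 for all genes. This count of 3 was 0 without either healthy array, 1 without GMP-labelled array 1 or 5, and 5 without array 4. With only the 7 arrays compared in the fit it was 11.

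Other measures differed between leukemic and healthy cells together with these genes. The 3' minus 5' signal of the actin control probe sets, which rises as RNA degrades, was 0.95 to 1.09 in the 4 healthy arrays, 0.48 to 0.63 in the DN2-labelled and 0.53 to 0.79 in the GMP-labelled leukemia. Of 10 neutrophil markers 9 were higher in the GMP-labelled leukemia than in healthy GMP (median 6.02), where 8.09% of all genes were higher. Their mean was 11.96 to 12.98 against 6.69 and 6.80. In the DN2-labelled leukemia 6 of 8 T-cell markers were higher than in healthy DN2 and 1 was lower (median 1.73). Of 6 NK-cell markers 4 were higher and 0 lower (median 4.84). Of all genes 9.49% were higher and 13.7% lower there. The part of these measures in the results was not tested.

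Between the healthy DN2 and GMP cells the outcome depended on which arrays set the spread. In the fit of all 17 arrays limma called 0 of the 38 genes in either direction, with 1 at an unadjusted p under 0.05, against 5.78% of all genes called higher and 5.40% lower in DN2. The median standard error of a member was 0.78 in that fit, whose spread is shared with the scattered DN2-labelled leukemias. With only the 4 healthy arrays in the fit it was 0.11, and limma called 17 members lower and 1 higher in DN2, beside 25.7% and 23.7% of all genes. The largest differences called in that fit were those of Aurkb (-0.81 ± 0.10, adjusted p = 0.00182), Cdk1 (-0.75 ± 0.16, adjusted p = 0.0121) and Plk1 (-0.74 ± 0.18, adjusted p = 0.0186). The higher gene called was Top2a (0.38 ± 0.12, adjusted p = 0.0424). Kif23 was higher in DN2 by more than Top2a but was not called (0.78 ± 0.39, adjusted p = 0.148). All of these were named after their values were seen. The median difference was -0.32 in both fits. The 2 arrays of DN2 lay below the 2 of GMP in 29 genes and above them in 6, as in 42.2% and 34.3% of all genes. The 3 genes of smallest difference were Spc25, Ect2 and Bub1b, at 0.08, 0.08 and -0.08.

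**Figure D2:**
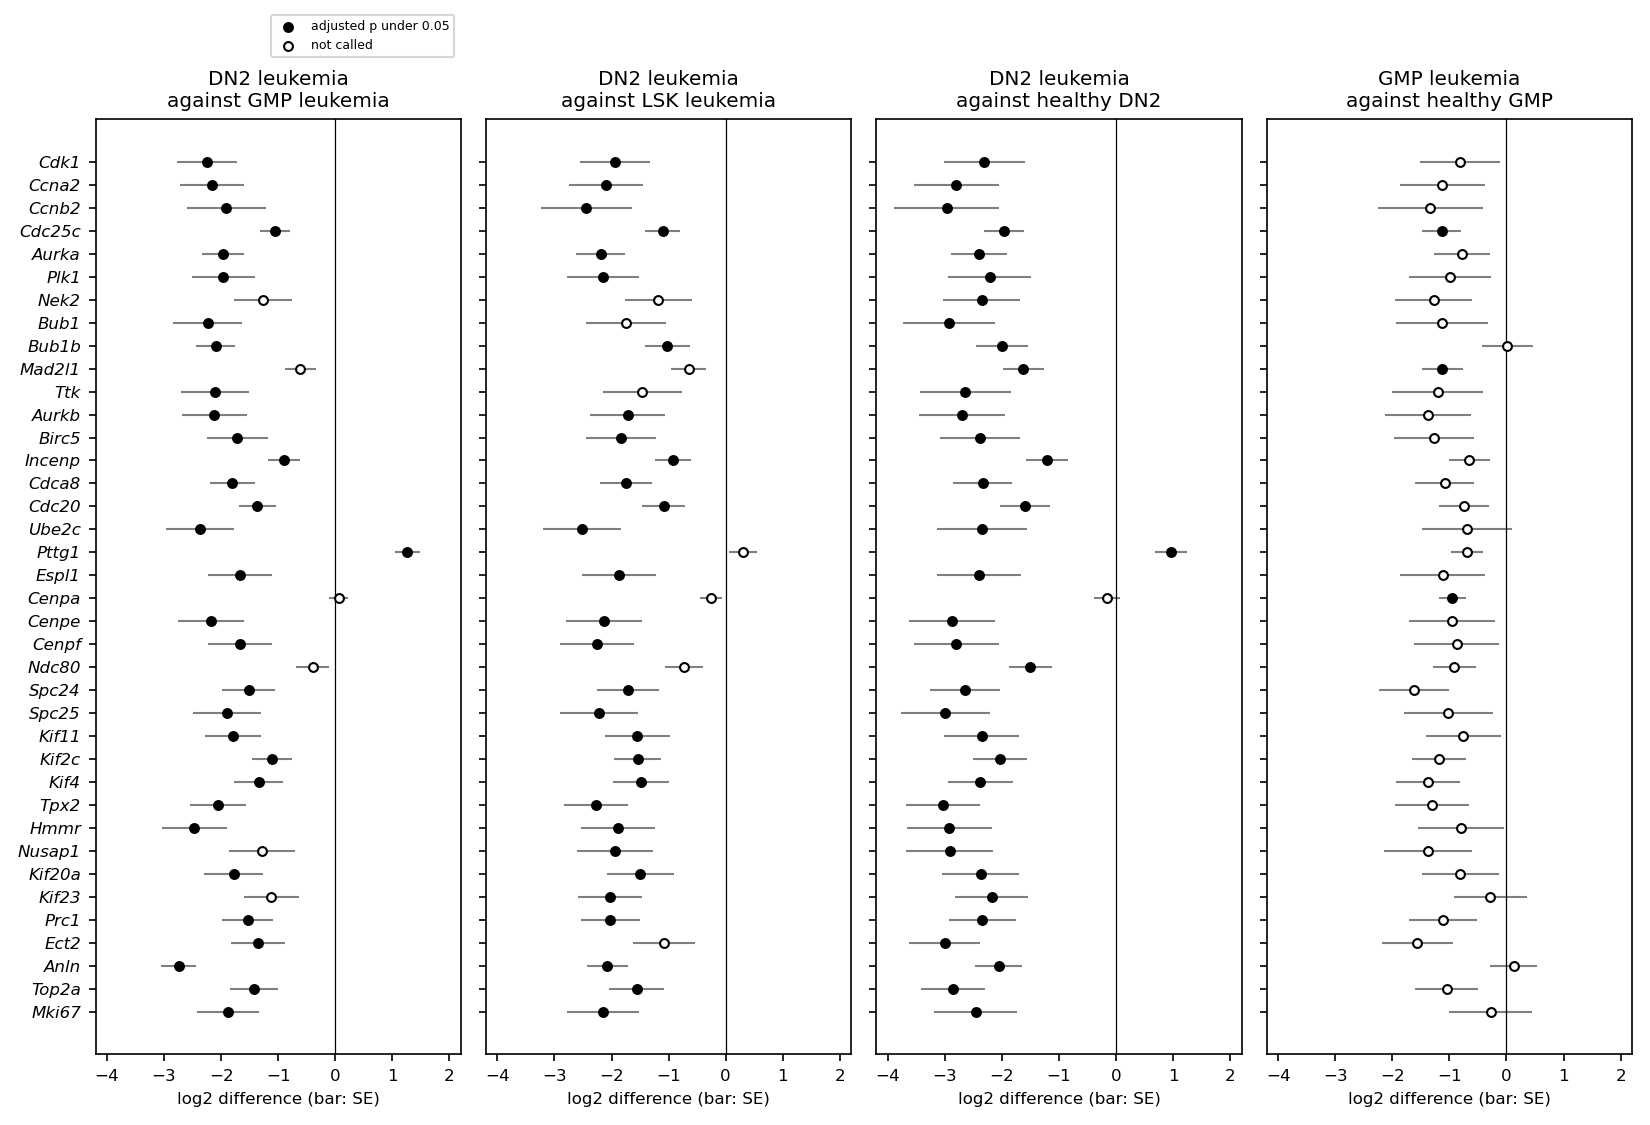
Log2 differences of the 38 genes in 4 comparisons, with bars for the standard error from limma, filled points for genes at an adjusted p under 0.05 and open points for the rest. Filled points lie left of 0 for 31, 30, 36 and 3 genes from the left panel to the right, and right of 0 only for Pttg1, in the panels against GMP-labelled leukemia and healthy DN2.

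The engine of mitotic entry followed the general pattern. Cdk1, the kinase that drives cells into mitosis, was 8.09, 6.69, 9.88, 8.22 and 5.92 in DN2-labelled arrays 1 to 5, and 9.95, 9.78, 10.12, 10.49 and 9.70 in the GMP-labelled arrays. It was 10.02, 9.31 and 9.78 in the LSK-labelled arrays, 9.96 and 10.18 in healthy DN2, and at least 10.64 in both healthy GMP arrays. Only DN2-labelled array 3 reached the range of the other leukemias. The difference from the GMP-labelled leukemia had an adjusted p of 0.00359 (limma), and that from healthy DN2 was -2.31 ± 0.71 (adjusted p = 0.0281). All 4 measured genes of this role, with the cyclins Ccna2 and Ccnb2 and the phosphatase Cdc25c, which removes inhibitory phosphates from Cdk1, were lower than in the GMP-labelled, the LSK-labelled and the healthy DN2 arrays.

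Ccnb2, a B-type cyclin, had the largest difference of the role from the LSK-labelled arrays, -2.45 ± 0.80 (adjusted p = 0.0206), and from healthy DN2, -2.97 ± 0.91 (adjusted p = 0.0288). Its values were 7.83, 5.62, 9.29, 7.58 and 4.60 in DN2-labelled arrays 1 to 5, against 8.99, 9.32 and 9.97 in LSK-labelled arrays 1 to 3. GMP-labelled array 1, at 7.56, was low among the 5 of its group, which otherwise had 8.78 to 9.71, so that DN2-labelled arrays 1 and 4 overlapped it too. Cdc25c was one of the 3 genes that fell in the GMP-labelled leukemia, from 6.35 and 6.48 in healthy GMP to 4.79 to 5.87 (-1.14 ± 0.35, adjusted p = 0.0313). The 2 ranges did not overlap. In DN2-labelled arrays 2, 4 and 5 Cdc25c was 3.94, 4.00 and 3.73, close to the background level of 3.83 (the median of all values), where differences are compressed.

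Of the mitotic kinases, Aurora A (Aurka), which matures the spindle poles, differed most. Its values in DN2-labelled arrays 1 to 5 were 6.49, 5.56, 7.77, 6.13 and 5.51, and in LSK-labelled arrays 1 to 3 they were 8.88, 8.10 and 8.47. These groups did not overlap, and the difference was -2.19 ± 0.43 (adjusted p = 8.33e-04). The GMP-labelled arrays had 7.77, 7.75, 8.59, 8.98 and 8.20, a difference of -1.97 ± 0.37 (adjusted p = 6.66e-04), with only DN2-labelled array 3 inside their range. From healthy DN2 it differed by -2.40 ± 0.49 (adjusted p = 0.00256). Plk1, the Polo kinase, was lower than in all 3 of these groups as well. In DN2-labelled arrays 2 and 5 Plk1 stood at 3.94 and 3.53, at background, and in array 3 at 7.31, within the 6.28 to 7.75 of the GMP-labelled arrays. Nek2, a kinase that separates centrosomes, was lower only against healthy DN2 (-2.35 ± 0.67, adjusted p = 0.0198), and the differences from the GMP-labelled (-1.27 ± 0.51, adjusted p = 0.0600) and LSK-labelled arrays (-1.18 ± 0.59, adjusted p = 0.113) did not pass.

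Among the spindle checkpoint genes, Bub1b, which encodes BubR1, was the one that separated the DN2-labelled from the GMP-labelled leukemias without overlap. It was 7.37, 6.84, 9.04, 7.58 and 6.69 in the DN2-labelled arrays, against 9.89, 9.62, 9.33, 9.60 and 9.55 in the GMP-labelled arrays, a difference of -2.10 ± 0.34 (adjusted p = 1.84e-04). Healthy GMP had 9.60 and 9.56, so Bub1b had one of the smallest differences between GMP-labelled leukemia and healthy GMP (0.02 ± 0.45, adjusted p = 0.984). It was also lower in the LSK-labelled arrays (8.30, 8.26 and 9.04) than in any GMP-labelled array, a difference that did not pass (-1.07 ± 0.40, adjusted p = 0.0590).

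Bub1, the kinase that recruits the checkpoint proteins to the kinetochore, had the largest difference of the role from the GMP-labelled arrays, -2.24 ± 0.61 (adjusted p = 0.00859), and from healthy DN2, -2.93 ± 0.80 (adjusted p = 0.0159). Ttk, the kinase Mps1 that starts checkpoint signalling, was 3.70 and 3.88 in DN2-labelled arrays 2 and 5 and 7.76 in array 3. Mad2l1, which encodes the checkpoint effector Mad2, moved least: its DN2-labelled values were 9.06, 8.28, 9.77, 8.70 and 8.76, against 8.98 to 10.03 in the GMP-labelled arrays (-0.61 ± 0.27, adjusted p = 0.0892). Mad2l1 was nonetheless lower than in healthy cells in both leukemias. The difference was -1.62 ± 0.36 for the DN2 origin (adjusted p = 0.00420) and -1.13 ± 0.36 for the GMP origin (adjusted p = 0.0376).

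All 4 genes of the chromosomal passenger complex, which corrects wrong attachments and later directs cytokinesis, were lower in the DN2-labelled arrays than in the GMP-labelled, LSK-labelled and healthy DN2 arrays. The kinase of the complex, Aurkb, was 6.35, 5.01, 8.26, 6.52 and 4.12 in DN2-labelled arrays 1 to 5 and 7.64 to 8.95 in the GMP-labelled arrays. It differed by -2.12 ± 0.57 from those (adjusted p = 0.00790) and by -2.70 ± 0.75 from healthy DN2 (adjusted p = 0.0176). Birc5, survivin, had the largest difference of the complex from the LSK-labelled arrays (-1.83 ± 0.62, adjusted p = 0.0242). The scaffold protein Incenp changed least of the 4, with -0.90 ± 0.28 against the GMP-labelled (adjusted p = 0.0172) and -1.21 ± 0.37 against the healthy DN2 arrays (adjusted p = 0.0261).

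The genes of anaphase onset split. The ubiquitin-conjugating enzyme Ube2c, which works with the anaphase-promoting complex, was 8.56, 6.41, 10.21, 8.28 and 6.11 in the DN2-labelled arrays, against 9.78, 9.70, 10.92, 10.60 and 10.43 in the GMP-labelled arrays (-2.37 ± 0.60, adjusted p = 0.00530). Against the LSK-labelled arrays, which had 10.58, 10.04 and 10.69, the difference was -2.52 ± 0.69 (adjusted p = 0.00774), the largest of all members in that comparison. Array 3 alone lay inside both ranges. The activator Cdc20 and separase, Espl1, were lower in both comparisons too. Against healthy DN2 all 3 of these genes were lower, with Espl1 at -2.40 ± 0.74 (adjusted p = 0.0293).

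Securin, Pttg1, which holds separase inactive until anaphase, went the other way. It was 11.77, 11.75, 11.50, 11.73 and 12.02 in DN2-labelled arrays 1 to 5, and 10.77, 10.36, 10.57, 10.20 and 10.54 in the GMP-labelled arrays. It was 10.65, 12.09 and 11.62 in the LSK-labelled arrays, 10.84 and 10.73 in healthy DN2, and 11.06 and 11.29 in healthy GMP. All 5 DN2-labelled arrays were thus above every GMP-labelled and every healthy array, and array 3 was the lowest of the 5. The difference from the GMP-labelled leukemia was 1.27 ± 0.21 (a 2.41-fold difference, adjusted p = 2.41e-04), and it passed in each alternative tried, with 1.15 to 1.41. Its 3 probe sets gave 1.27, 1.23 and 1.73. The difference from healthy DN2 was 0.97 ± 0.28 (adjusted p = 0.0223), and it did not pass without either healthy DN2 array. In LSK-labelled array 1, the only one of that group with high Mycn, Pttg1 was near the GMP-labelled arrays. The rise in LSK-labelled over GMP-labelled leukemia (0.96 ± 0.25, adjusted p = 0.00985) was 0.16 without arrays 2 and 3 and was then not called (adjusted p = 0.726). It was not called without array 2 alone either. Between DN2-labelled and LSK-labelled arrays Pttg1 differed by 0.30 ± 0.25 (adjusted p = 0.336).

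**Figure D3:**
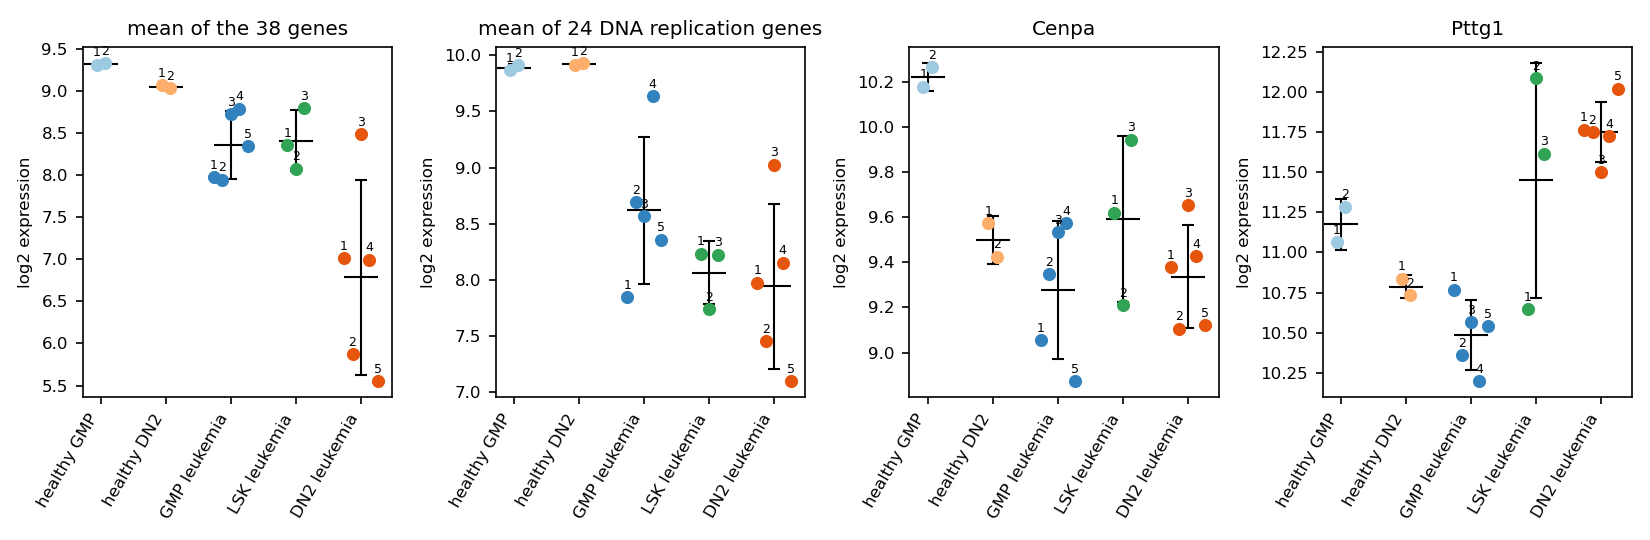
Log2 expression per array (points, numbered by replicate) with the group mean and SD (bars), for the mean of the 38 genes, the mean of 24 DNA replication genes, Cenpa and Pttg1; each panel has its own vertical range, none starting at 0. The mean of the 38 genes runs from 5.55 to 8.49 in the DN2-labelled arrays, Cenpa only from 9.11 to 9.65, and Pttg1 is lowest in DN2-labelled array 3.

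At the centromere, Cenpa stood apart from its partners. Cenpa encodes the histone variant that marks the centromere. It was 9.38, 9.11, 9.65, 9.43 and 9.12 in the DN2-labelled arrays, 9.05, 9.35, 9.53, 9.57 and 8.87 in the GMP-labelled arrays, and 9.57 and 9.43 in healthy DN2. These 3 groups overlapped, and the differences were 0.06 ± 0.17 from the GMP-labelled leukemia (adjusted p = 0.827) and -0.16 ± 0.23 from healthy DN2 (adjusted p = 0.686). In healthy GMP Cenpa was higher, at 10.18 and 10.27, and the GMP-labelled leukemia fell below it by -0.95 ± 0.23 (adjusted p = 0.00952). A second, dimmer probe set gave 0.09 for that last difference, so the probe sets disagree in sign there. In the dimmer one the DN2-labelled arrays had 5.42 to 6.60, overlapping the 4.74 to 6.45 of the GMP-labelled arrays. The Cenpa differences above are those of the brighter probe set.

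The other kinetochore genes fell more. Cenpe, a motor that carries chromosomes along microtubules, was 6.83, 5.31, 8.65, 6.51 and 4.43 in the DN2-labelled arrays and 7.88 to 9.04 in the GMP-labelled arrays (-2.18 ± 0.57, adjusted p = 0.00702). Cenpf, a large protein of the outer kinetochore, had the largest difference of the role from the LSK-labelled arrays (-2.26 ± 0.65, adjusted p = 0.0103), and Spc25, of the microtubule-binding Ndc80 complex, from healthy DN2 (-2.99 ± 0.78, adjusted p = 0.0123). Ndc80 itself differed little from the GMP-labelled arrays (-0.39 ± 0.29, adjusted p = 0.313), although it was lower than in healthy DN2 (-1.50 ± 0.38, adjusted p = 0.0102), and Spc24 of the same complex was lower in both comparisons. Of the 6 genes, 4 were called against the GMP-labelled, 4 against the LSK-labelled and 5 against the healthy DN2 arrays.

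Of the 6 spindle motors and microtubule proteins, 5 were lower than in the GMP-labelled arrays and all 6 than in the LSK-labelled and healthy DN2 arrays. Hmmr, a microtubule-binding protein of the spindle poles, was 6.71, 5.34, 8.91, 6.54 and 4.96 in the DN2-labelled arrays, against 8.49, 8.21, 9.54, 9.31 and 9.28 in the GMP-labelled arrays (-2.47 ± 0.57, adjusted p = 0.00278). Array 3 lay inside the GMP-labelled range and the others at least 1 unit below it. Tpx2, which activates Aurora A on the spindle, differed by -2.28 ± 0.57 from the LSK-labelled arrays (adjusted p = 0.00432) and by -3.03 ± 0.65 from healthy DN2 (adjusted p = 0.00339), an 8.18-fold difference and the largest of any member there. Nusap1, a microtubule bundling protein, was the member not called against the GMP-labelled arrays (-1.29 ± 0.58, adjusted p = 0.0927). Of the kinesins, Kif11, which pushes the spindle poles apart, was 6.04, 4.76, 7.60, 5.91 and 4.03 in the DN2-labelled arrays and 6.88 to 7.85 in the GMP-labelled arrays.

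In cytokinesis, Anln had the largest difference of the role from the GMP-labelled and LSK-labelled leukemias. It encodes anillin, which organises the contractile ring. It was 5.99, 6.08, 7.75, 6.33 and 7.04 in the DN2-labelled arrays, against 9.19, 8.80, 9.83, 9.40 and 9.69 in the GMP-labelled arrays. It was 8.64, 8.31 and 9.19 in the LSK-labelled arrays, 8.65 and 8.74 in healthy DN2, and 9.26 and 9.25 in healthy GMP. All 5 DN2-labelled arrays were below every other array of the study, array 3 included. The difference was -2.74 ± 0.31 against the GMP-labelled (adjusted p = 5.47e-06), -2.08 ± 0.36 against the LSK-labelled (adjusted p = 3.02e-04) and -2.06 ± 0.41 against the healthy DN2 arrays (adjusted p = 0.00205). Against the GMP-labelled arrays it passed in each alternative tried, with -3.13 to -1.74. The GMP-labelled leukemia did not differ detectably from healthy GMP (0.12 ± 0.41, adjusted p = 0.869).

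Ect2, which switches on the small GTPase that drives furrowing, had the largest difference of this role from healthy DN2: it was 6.14, 5.58, 7.65, 6.29 and 4.35 in the DN2-labelled leukemias and 9.06 and 8.95 in the healthy cells (-3.00 ± 0.62, adjusted p = 0.00276, an 8.00-fold difference). It was low in the other leukemias too, with 6.59 to 7.74 in the LSK-labelled and 6.61 to 8.14 in the GMP-labelled arrays. Prc1 and Kif20a of the central spindle were lower in the DN2-labelled arrays than in both other leukemias. Kif23, a kinesin of the same structure, was not called against the GMP-labelled arrays (-1.12 ± 0.48, adjusted p = 0.0802). It ran from 3.23 to 4.82 in the DN2-labelled arrays, within 1 unit of background, and was highest in LSK-labelled arrays 2 and 3 (6.20 and 6.84).

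The proliferation marker Mki67 (Ki-67) was 9.29, 7.30, 10.60, 8.89 and 7.08 in the DN2-labelled arrays. It was 10.54, 9.51, 11.18, 10.39 and 10.96 in the GMP-labelled arrays and 11.05, 10.27 and 11.01 in the LSK-labelled arrays. Array 3 was again the one inside the other leukemias' ranges. Mki67 differed by -1.88 ± 0.55 from the GMP-labelled (adjusted p = 0.0130) and by -2.15 ± 0.63 from the LSK-labelled arrays (adjusted p = 0.0120). In the GMP-labelled leukemia it was near healthy GMP, which had 10.94 and 10.63 (-0.27 ± 0.72, adjusted p = 0.833). Top2a, the topoisomerase that untangles sister chromatids, was lowest against healthy DN2, which had 11.51 and 11.52, a difference of -2.86 ± 0.56 (adjusted p = 0.00168).

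Whether the step from healthy to leukemic cells differed between the 2 origins was tested by the interaction, which subtracts the leukemia-minus-healthy difference of the GMP origin from that of the DN2 origin. Its median over the members was -1.47, beside 0.09 for all genes, but limma called only 2 of the 38 genes, with 6 at an unadjusted p under 0.05 (6.39% of all genes were called higher and 6.28% lower). Pttg1 had an interaction of 1.66 ± 0.40 (adjusted p = 0.0127), since it was higher than in healthy cells in the DN2-labelled leukemia, while its difference in the GMP-labelled leukemia was -0.69 ± 0.28 (adjusted p = 0.0952). Anln had an interaction of -2.18 ± 0.58 (adjusted p = 0.0226). The smallest interactions were those of Mad2l1 (-0.50 ± 0.51), Incenp (-0.56 ± 0.52) and Ndc80 (-0.59 ± 0.54). Without DN2-labelled array 3 the count of lower genes was 9, and without any 1 of healthy DN2 array 1, healthy DN2 array 2, healthy GMP array 1 or healthy GMP array 2 it was 0. Pttg1 was not called without healthy DN2 array 2 or healthy GMP array 2.

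Within the DN2-labelled leukemias, array 3 carried far more of the mitotic transcripts than its 4 companions. It was the highest of the 5 in 37 of the 38 genes, as in 25.4% of all genes tested. In 32 genes it was at least 1 unit above the next array, as in 1.20% of all genes. Its excess over the mean of the other 4 had a median of 2.39 over the members and of 0.04 over all genes. The largest excesses were those of Hmmr (3.02), Cenpe (2.88), Ccnb2 (2.88), Ube2c (2.87) and Ttk (2.86). The smallest were those of Pttg1 (-0.32), Cenpa (0.39) and Mad2l1 (1.07). Array 3 was noted as standing apart in earlier results of these data, and it is 1 array, so these are descriptions with no test. Compared with the GMP-labelled leukemias, array 3 lay within their range in 30 genes, above all 5 arrays in 6 and below all 5 in 2. The shares of all genes were not taken for these counts.

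The other 4 arrays were not alike either. Arrays 2 and 5 were the 2 lowest of the 5 in 35 of the 38 genes, as in 16.8% of all genes. The full order, array 3 above arrays 1 and 4 and these above arrays 2 and 5, held in 35 genes, as in 9.40% of all genes (noted after the values were seen). Relative to the mean of the GMP-labelled arrays, the median member stood at 0.14 in array 3, -1.32 in array 1, -1.42 in array 4, -2.72 in array 2 and -3.19 in array 5. In 31 genes arrays 1, 2, 4 and 5 were all below every GMP-labelled array, and in 36 genes arrays 2 and 5 were. No share of all genes was taken for these counts either. In array 5 17 members, and in array 2 11, were no more than 1 unit above background, so that their distances there are compressed. In array 3 1 member was.

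**Figure D4:**
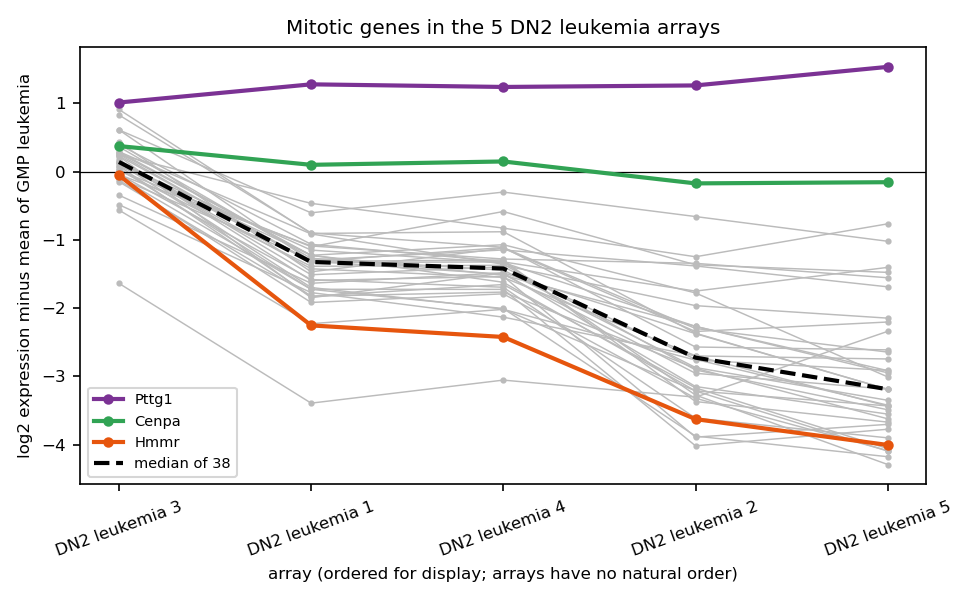
Log2 expression of each of the 38 genes (lines) in the 5 DN2-labelled arrays (horizontal, ordered for display only) minus the mean of the gene in the GMP-labelled leukemia. The median line (dashed) falls from 0.14 in array 3 to -3.19 in array 5, Hmmr falls further, Cenpa stays near 0, and Pttg1 stays above 1 in all 5 arrays.

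Some other measures moved with this order wholly or in part, and some did not. The mean of 6 NK-cell marker genes was 11.49 in array 3, 11.40 in array 1, 10.15 in array 4, 9.43 in array 2 and 9.52 in array 5, against 3.65 to 4.68 in the GMP-labelled arrays. Gene by gene the order was looser: array 3 was highest in 4 of the 6, and arrays 2 and 5 were the lowest in 3. Itgam was high in arrays 3 and 1 only, and was lowest in array 4. The 3' minus 5' signal of the Gapdh control probe sets was -0.11 in array 3, -0.02 in array 1, 0.14 in array 4, 0.08 in array 2 and 0.19 in array 5, within the -0.03 to 0.27 of the GMP-labelled arrays except for array 3. The Gapdh signal thus ran inversely to the order only in part, since array 2 lay below array 4. The signal of the actin control probe sets did not follow the order, with 0.55 in array 3, 0.53 in array 1, 0.63 in array 4, 0.48 in array 2 and 0.61 in array 5. The part of these measures in the result was not tested. The mean of 8 T-cell marker genes was 9.86 in array 3, below the 9.94 to 10.37 of its companions, and Mycn was 11.76 in array 3 and 11.58 to 12.10 in the others, so neither followed the order. Neutrophil markers (10 genes, mean 3.47 to 5.10), promyelocyte markers (5 genes, 3.54 to 3.65), monocyte markers (5 genes, 3.93 to 6.67), B-cell markers (5 genes, 3.54 to 4.55) and erythroid markers (8 genes, 4.10 to 5.26) did not follow the order as a whole. The monocyte mean departed from it only in array 1, which at 6.67 was above the 4.99 of array 3. Of these 5 lists the B-cell and promyelocyte means were highest in array 3, at 4.55 and 3.65, as was the mean of 4 platelet markers (3.86, with 3.56 to 3.71 in the others). The mean of 5 stroma genes was lowest there (3.53, with 3.62 to 3.89). In the GMP-labelled leukemia the neutrophil mean was 11.96 to 12.98 and the promyelocyte mean 8.59 to 12.67, so these markers differed between the groups together with the mitotic genes, and their part in the group difference was not tested.

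Without array 3 the contrast with the GMP-labelled leukemia had 36 lower genes and a median of -2.24. Without array 5 the median was -1.31, and without array 2 the count was 23. With only arrays 1 and 3, the 2 with Itgam, 2 genes were lower and the median was -0.57. The share of all genes called was not taken for these settings, so a smaller count cannot be told apart from the use of fewer arrays. With only arrays 1 and 3 the median against healthy DN2 was -1.42, with 7 genes lower. In that setting the Pttg1 and Anln differences from the GMP-labelled leukemia kept their calls, while Pttg1 lost its call against healthy DN2.

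Other genes of the same machinery were followed as 6 lists of non-members, with DNA replication genes as a list of another phase. Their counts are read against the 18.8% of all genes called lower and 21.0% called higher in DN2-labelled against GMP-labelled leukemia. There 17 of 30 other kinetochore and centromere genes were lower and 1 was higher (median -0.86), led by the shugoshin Sgo2a, a protector of centromeric cohesin (-1.92 ± 0.38, adjusted p = 8.12e-04). Of 24 other spindle and cytokinesis genes, 16 were lower and 1 was higher (median -1.18). Psrc1, a microtubule-binding protein known as a p53 target, had the largest difference there, from 10.00 to 11.18 in the GMP-labelled to 5.71 to 6.72 in the DN2-labelled arrays (-4.28 ± 0.60, adjusted p = 4.24e-05). Against the LSK-labelled arrays only 5 of the 30 kinetochore and centromere genes were lower and 1 was higher (median -0.40). Of the 24 spindle and cytokinesis genes 17 were lower there and 2 were higher (median -1.33). Of all genes 19.1% were lower and 28.4% higher in that comparison. For these 2 lists array 3 had a median excess of 1.19 and 1.67 over the other 4 DN2-labelled arrays.

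Of 17 genes of cohesin and condensin 4 were lower, a share near that of all genes, and 1 was higher (median -0.08). Ncapg2 and Ncapg of the condensin complexes were lower by -1.64 ± 0.49 (adjusted p = 0.0145) and -1.27 ± 0.48 (adjusted p = 0.0472), while Smc4, an ATPase of the same complexes, was higher by 1.42 ± 0.20 (adjusted p = 4.64e-05). Of 13 genes of the anaphase-promoting complex and its regulators, 1 was higher and 1 was lower (median 0.24), the latter Anapc13 (-0.51 ± 0.14, adjusted p = 0.00770). The partners of Cdc20 and Ube2c in the complex thus mostly did not pass against the GMP-labelled arrays. Against the LSK-labelled arrays 8 of the 13 were higher and 1 was lower (median 0.51), beside 28.4% and 19.1% of all genes.

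Among 9 genes that control Cdk1, 2 were higher and 2 were lower, near the 21.0% and 18.8% of all genes, in a list too short for a close comparison. The phosphatase Cdc25b, an activator of Cdk1, was 8.51 to 10.42 in the DN2-labelled and 3.96 to 5.75 in the GMP-labelled arrays (4.85 ± 0.39, adjusted p = 1.28e-07). It therefore had the opposite direction to its relative Cdc25c. The inhibitor Cdkn1a (p21) was lower by -4.51 ± 0.66 (adjusted p = 6.21e-05) and the inhibitor Cdkn1b (p27) higher by 2.51 ± 0.64 (adjusted p = 0.00556). Of 10 regulators of late cell cycle transcription, 2 were higher and 3 were lower, in a list likewise too short to set closely against those shares. The lower genes were Mybl2, which joins the complex that switches mitotic genes on (-1.78 ± 0.29, adjusted p = 1.81e-04), Tfdp1, a partner of the E2F factors (-1.05 ± 0.16, adjusted p = 1.26e-04), and Foxm1, an activator of mitotic genes (-0.66 ± 0.16, adjusted p = 0.00411). The higher genes were Lin52, a subunit of the complex that Mybl2 joins (0.77 ± 0.16, adjusted p = 0.00142), and Rbl2, a relative of the retinoblastoma protein (0.69 ± 0.19, adjusted p = 0.0107). Foxm1 and Rbl2 were named after their values were seen. In the DN2-labelled arrays Mybl2 was 4.23 to 4.82 and Foxm1 4.02 to 4.80, within 1 unit of background, where differences are compressed.

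Of 24 DNA replication genes, 6 were lower and 1 was higher in the DN2-labelled against the GMP-labelled arrays (median -0.43), the former near the share of all genes, and 2 were lower and 4 were higher against the LSK-labelled arrays (median 0.10, with 19.1% of all genes lower and 28.4% higher). Cdc45, of the replicative helicase, had the largest difference from the GMP-labelled arrays (-2.69 ± 0.42, adjusted p = 1.19e-04). Against healthy cells the replication genes fell in both leukemias, 21 of 24 in the DN2-labelled (median -2.11) and 12 of 24 in the GMP-labelled leukemia (median -1.25). Of all genes 13.7% and 13.1% were lower there, and the medians of the mitotic genes were -2.38 and -1.03. In array 3 the median excess of the replication genes over the other 4 DN2-labelled arrays was 1.25. Array 3 was the highest of the 5 in 23 of the 24 genes, as in 25.4% of all genes. Arrays 2 and 5 were lowest in 19, as in 16.8% of all genes.

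Of the 38 genes, 20 had more than 1 probe set (68 in all). For called differences the probe sets disagreed in sign in Cenpa, as given above, and in 5 other genes: Incenp and Cenpf against the GMP-labelled arrays, Incenp against the LSK-labelled arrays, and Nek2, Ttk and Top2a against healthy DN2. In these 5 the disagreeing probe set was below background in every group, with values of 0.01 to 0.11 against differences of -2.86 to -0.90 in the probe set used.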

How the data were processed

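The deposited values are log2 probe set summaries made by the authors with RMA from the package affy, per the submitters' processing notes, which name no version. Whether all arrays were summarised together is not stated. The table holds 45141 probe sets, and 104 control probe sets were left out of the tests. The platform annotation gave 28898 probe sets 1 gene symbol. Array medians were 3.80 to 3.86. They cannot show whether an array was out of scale before processing, since RMA evens out the arrays. Near that level signal is background and differences are compressed. There are no counts or detection calls, and the number of arrays limits the precision.

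Genes entered the tests when at least 1 group had a mean above 3.83, the median over the whole table. Differences were fitted with limma 3.58.1 (lmFit, eBayes) in R 4.3.3, as 1 model of the 5 group means over the 17 arrays, and tested two-sided in 7 comparisons. P-values were adjusted by Benjamini-Hochberg over 11625 genes, with a threshold of 0.05 for a call. The procedure was tested on simulated data. The members and all gene lists were chosen with earlier results of these data known, so counts over them are descriptions and no set test was run.

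The genes named are, per comparison, the called gene with the largest difference in each role, the 3 genes with the smallest difference and any called against the majority. For DN2-labelled array 3 they are the 5 largest and 3 smallest excesses. Genes with an array far from its group, genes whose probe sets disagree in sign, and at most 3 non-members per list with the largest difference are also named. Promoters come from a RefSeq table of GRCm38.p6. Alternatives changed the probe set per gene, the filter, the normalization, the variance model, array weights, a replicate block, the arrays fitted and the arrays left out.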

Additional observations from a re-analysis of the deposited data

Results flagged for a closer look

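In Kif2c, a kinesin that takes microtubules apart at the kinetochore, DN2-labelled array 3 stood far from the rest of its group. It had 5.94, the next array had 4.36 and the lowest 3.93, so the gap was 0.787 of the range. Dixon's ratio marked this one among 78 values looked at, and chance marks about 1 in 20. Array 3 was already noted as standing apart in these data, so the mark is a description and no test.

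The difference between leukemic and healthy cells differed between the DN2 and GMP origins by limma's interaction term for Pttg1 (1.66 ± 0.40, adjusted p = 0.0127) and Anln (-2.18 ± 0.58, adjusted p = 0.0226). Pttg1 was above both healthy DN2 arrays in 5 of 5 DN2-labelled arrays and below both healthy GMP arrays in 5 of 5 GMP-labelled arrays. Anln was below both healthy DN2 arrays in 5 of 5 DN2-labelled arrays, and in the GMP-labelled leukemia it overlapped healthy GMP.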

How the results depend on the processing

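The number of arrays and the signal near background limit these results. The share of all genes called was not taken under the alternatives, except for the healthy arrays fitted alone. Their counts therefore cannot be set against all genes. No called difference of a member reversed its sign under any alternative. Without the 3 DN2-labelled arrays of low Itgam, an alternative chosen after seeing the data, 2 genes were lower than in GMP-labelled leukemia (median -0.57), 2 than in LSK-labelled leukemia (median -0.66) and 7 than in healthy DN2 (median -1.42, 0 higher), and limma called 0 in the interaction in either direction (median -0.27). Without the 2 LSK-labelled arrays of low Mycn, 2 genes were lower and 1 higher in DN2-labelled than in LSK-labelled leukemia, and 0 were higher in LSK-labelled than in GMP-labelled leukemia.

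With only the arrays compared in the fit, 9 genes were lower in DN2-labelled than in LSK-labelled leukemia, 14 than in healthy DN2, and 11 in GMP-labelled leukemia than in healthy GMP. In that setting healthy DN2 had 1 gene higher and 17 lower than healthy GMP, and LSK-labelled leukemia 0 higher and 1 lower than GMP-labelled. With array weights 15 genes fell in GMP-labelled leukemia against healthy GMP, 2 were higher and 18 lower in the interaction, 2 were lower in healthy DN2 than in healthy GMP, and 2 in LSK-labelled than in GMP-labelled leukemia. With the mean of all probe sets 1 gene was lower in LSK-labelled than in GMP-labelled leukemia and 2 in the interaction, the healthy groups differed by a median of -0.24, and the group means were 7.39 (GMP-labelled), 7.46 (LSK-labelled), 8.00 (healthy DN2) and 8.22 (healthy GMP). Another quantile normalization gave 2 lower in the interaction and a healthy GMP mean of 9.30. The causes were not tested.

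Whether the replicate numbers pair the arrays is not stated, and the values do not settle it. Deviations from the group mean were correlated between arrays of different groups. Same-numbered arrays had a mean r of 0.02 (25 pairs, -0.302 to 0.254, 6 over 0.1). Arrays of other numbers had -0.005 (86 pairs, -0.241 to 0.336, 14 over 0.1). Centring on small groups holds such means near 0. Of the 17 arrays, 7 correlated best with one of their own number. With the replicate number as a block, 8 genes were lower in GMP-labelled leukemia than in healthy GMP, 0 higher in DN2-labelled leukemia than in healthy DN2, 2 lower in the interaction, 1 lower in healthy DN2 than in healthy GMP and 1 in LSK-labelled than in GMP-labelled leukemia.

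Leaving out 1 array at a time, DN2-labelled leukemia had 23 to 36 genes lower than GMP-labelled, 10 to 36 lower and 0 to 1 higher than LSK-labelled, and 6 to 36 lower and 0 to 1 higher than healthy DN2. GMP-labelled leukemia had 0 to 5 lower than healthy GMP. The interaction had 0 to 9 lower and 0 to 1 higher, LSK-labelled had 0 to 2 higher than GMP-labelled leukemia, and the median between healthy groups was -0.35 to -0.26.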
